A study of Homo sapiens with 3 samples.

Results

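Described here are 36 genes of the Myc and ribosome biogenesis programme in AB12, a mouse malignant mesothelioma cell line, with and without knockdown of Nf2. They are the rows whose gene symbol is on a list of 37 names (Myc and Mycn, nucleolar and polymerase genes, metabolic enzymes and chaperonins), out of 13936 genes in the table; Mycn has no row and was not analysed here. The series holds 2 libraries labelled shNF2, numbered 20 and 21 and called library 20 and library 21, and 1 library labelled shSC, read here as a control hairpin; the column headers call it WT and call both shNF2 libraries KD. All 3 libraries are polyA RNA of the same line grown in serum. The labels give neither the hairpin sequences nor whether the libraries came from separate cultures or clones. Whether 20 and 21 number different hairpins or replicates is not stated either. Mouse gene identifiers and the mouse build named in the processing notes go against the organism label, which reads human, and the values were treated as mouse.

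Myc is a transcription factor that binds E-box DNA together with its partner Max and raises the transcription of genes needed for growth, among them those that build ribosomes, nucleotides and polyamines. Ribosomes are assembled in the nucleolus: RNA polymerase I makes the ribosomal RNA precursor, small nucleolar ribonucleoproteins (snoRNPs) modify it, and processing factors cut it and fold it into the small and large subunits. Nf2 encodes merlin, a tumour suppressor upstream of the Hippo pathway that is often lost in mesothelioma. No sequence of these genes is shown, because no mouse sequence was used here.

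Values are scaled counts as deposited, that is, reads per gene divided by 1 factor per library, and log2 fold changes are on log2(scaled count + 1). Reads in genes numbered 25837151 and 26829163 in libraries 20 and 21 and 29532600 in shSC. Nf2 had 486 and 458 scaled counts in libraries 20 and 21, against 1539 in shSC (log2 fold change -1.70, limma adjusted p = 0.00555). Quantile normalization ended this call (log2 fold change -1.72, adjusted p of 0.496), as did leaving out the trend of variance with level (-1.70, 0.187). Of 10 mesothelial markers 5 had a row, with summed levels of 39947 and 33759 scaled counts in libraries 20 and 21 and 43900 in shSC; its largest part was the keratin Krt18, with 20443 and 16561 in libraries 20 and 21, against 23657 in shSC. Mesothelin (Msln) had 9722 and 8977 scaled counts in libraries 20 and 21, against 7397 in shSC, and Krt7 had 290 and 183, against 49.7. Krt8 had 6476 and 5420, against 7683 in shSC, and Krt19 had 3016 and 2618, against 5113. Msln and Krt7 thus lay above shSC in both libraries, and Krt8, Krt18 and Krt19 below it in both. Wt1, Upk3b, Pdpn, Calb2 and Lrrn4 had no row. None of 7 lymphocyte and 5 endothelial markers had a row. Of 7 fibroblast markers 3 had a row, and summed to 22.0 and 90.4 in libraries 20 and 21, against 14.6 in shSC. Most of the sum in library 21 was Acta2, with 69.0, against 1.05 in library 20 and 0.97 in shSC. Of 7 macrophage markers 3 had a row, mostly Mrc1, and summed to 5983 and 6410, against 6085 in shSC.

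No gene of the group passed the test in shNF2 against shSC. All 36 were tested among 12813 genes, and limma called 0 of them at an adjusted p of at most 0.05, where 0.843% of all genes tested were called. At an unadjusted p under 0.05 there was 1, the nucleolin gene Ncl, by limma, by edgeR and by DESeq2 alike; over all genes tested these shares were 9.27%, 9.12% and 5.56%. After adjustment edgeR and DESeq2 also called 0, where they called 0.632% and 0.812% of all genes. The smallest limma adjusted p was 0.357. Log2 fold changes ran from -0.40 (Hspe1) to 0.64 (Ncl). Within 0.25 of zero lay 25 of 36 (69.4%), against 52.9% of all genes tested.

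The group as a whole lay slightly above shSC. Its median log2 fold change was 0.11, with 0.15 in library 20 and 0.08 in library 21, against -0.00 over all genes tested. Both shNF2 libraries were above shSC for 20 of 36 genes, where this held for 36.1% of all genes tested, and both were below it for 8, where this held for 35.8%. For the other 8 the shSC value lay between those of the shNF2 libraries. Both fold changes of a gene share the 1 shSC library, so its chance value enters both. In bulk RNA of a cell line, a difference in some cells and a smaller one in all cells cannot be told apart.

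The precision sets how these values can be read. The SE of a log2 fold change ran from 0.21 to 0.27 over the 36 genes, and it rests mostly on the trend of variance over all genes, which had 11.9 prior degrees of freedom against 1 between the shNF2 libraries. The shSC library, with no replicate, was taken to have the same spread. The 95% limma interval lay within 1 log2 unit of zero for 35 of 36 genes, the exception being Ncl. Among the 7048 genes tested in the range of mean level of these 36, 47 passed, and the smallest change that passed had a size of 0.99. Changes of the size seen here were therefore not detectable at this threshold with these libraries, and a missed threshold does not show that a level was the same.

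**Figure D1:**
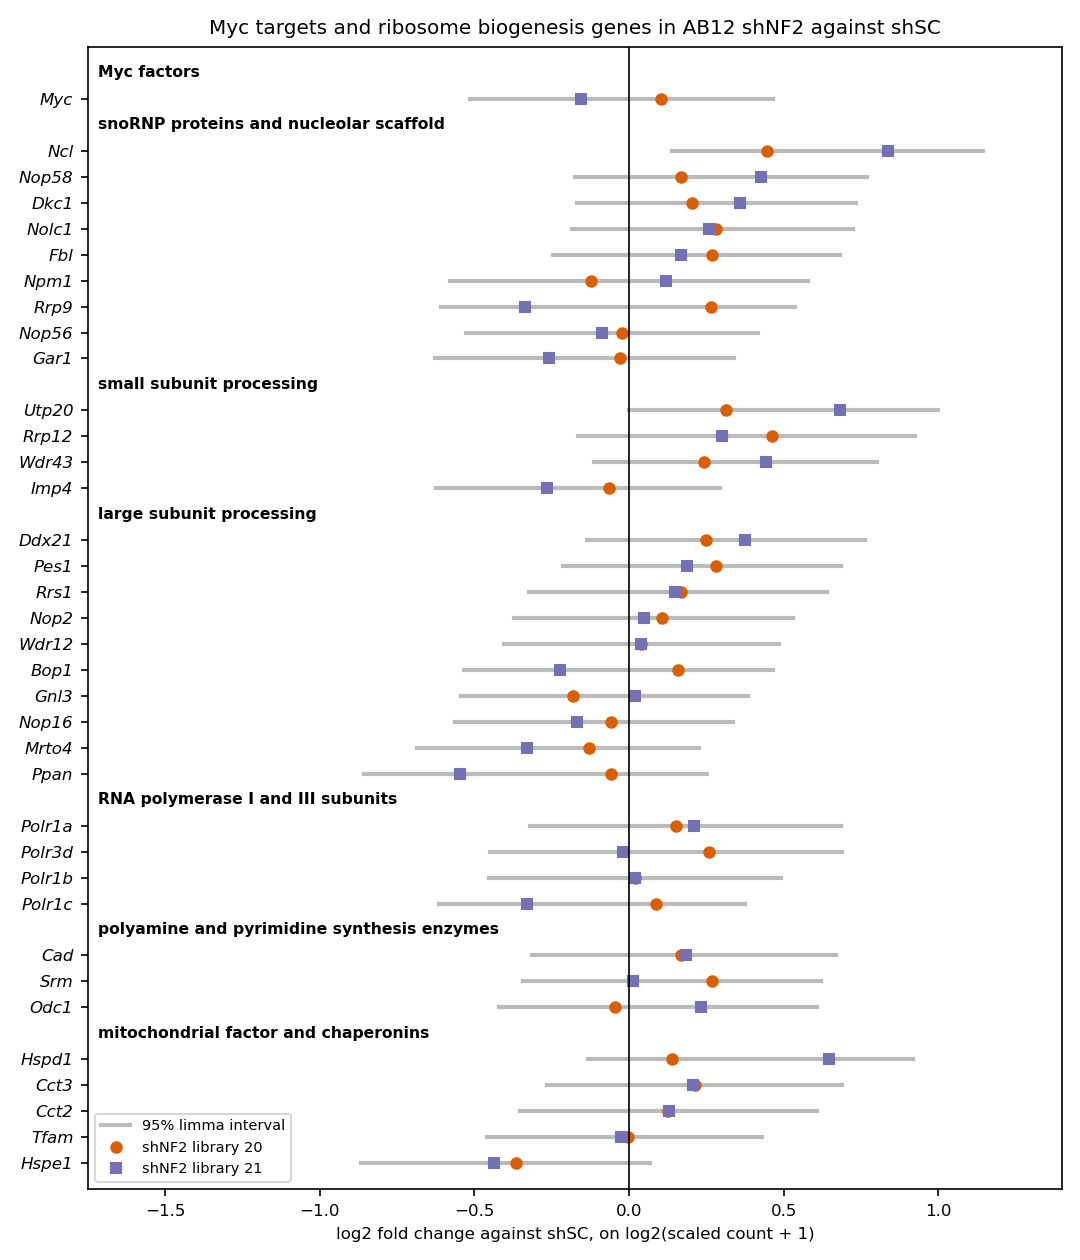
Log2 fold change against shSC of the 36 genes (x axis, on log2 of scaled count + 1), grouped by role, with circles for shNF2 library 20, squares for shNF2 library 21 and grey bars for the 95% limma interval of their mean. All intervals except that of Ncl include 0, and values run from -0.55 (Ppan, library 21) to 0.84 (Ncl, library 21).

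Myc itself had 1454 and 1216 scaled counts in libraries 20 and 21, against 1353 in shSC. The shSC value lay between those of the shNF2 libraries, and the log2 fold change was -0.03 with a 95% interval of -0.52 to 0.46 (limma adjusted p = 0.982). Max, the partner of Myc on DNA, had 1160 and 1066 scaled counts in libraries 20 and 21 and 1111 in shSC, a log2 fold change of 0.00. These levels are of mRNA and say nothing of the amount or activity of the proteins.

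Among 9 snoRNP proteins and nucleolar scaffold genes, 5 were above shSC in both shNF2 libraries and 2 were below it in both. Over all genes tested these shares were 36.1% and 35.8%. Of the 9 genes 0 passed, and the median log2 fold change was 0.22. Ncl encodes nucleolin, an abundant nucleolar RNA-binding protein that acts in ribosomal RNA synthesis and early processing. It had 14522 and 19050 scaled counts in libraries 20 and 21, against 10659 in shSC. Both shNF2 libraries were above shSC, library 21 by more, and the log2 fold change was 0.64 ± 0.23 (SE; 95% interval 0.14 to 1.15; limma adjusted p = 0.357). This value was higher than that of 94.7% of all genes tested. Npm1, which encodes nucleophosmin, the other major nucleolar scaffold protein, had 93188 and 110137 scaled counts in libraries 20 and 21, against 101404 in shSC. Its groups overlapped, and the log2 fold change was -0.00 (95% interval -0.58 to 0.58), which became 0.37 under quantile normalization. Within a library, where scaling cancels, the ratio of Ncl to Npm1 was 0.156 and 0.173 in libraries 20 and 21 and 0.105 in shSC. A trend with base composition or length does not cancel in it, and this pair was chosen after its values were seen.

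The box C/D snoRNP, which methylates ribosomal RNA, is built on Fbl, the methyltransferase fibrillarin, and the paired scaffold proteins Nop56 and Nop58. Fbl had 1802 and 1684 scaled counts in libraries 20 and 21, against 1498 in shSC. Nop58 had 10061 and 12049, against 8963 in shSC, and Nop56 had 19908 and 19028, against 20223 in shSC. Fbl and Nop58 thus lay above shSC in both libraries and Nop56 below it in both, with log2 fold changes of 0.22, 0.30 and -0.06. For the H/ACA snoRNP, which converts uridine to pseudouridine, the catalytic subunit gene Dkc1 had 4535 and 5045 scaled counts in libraries 20 and 21, against 3934 in shSC. Its partner Gar1 had 1471 and 1252, against 1499 in shSC. The log2 fold changes were 0.28 for Dkc1 and -0.14 for Gar1, and the other core subunit genes were Nop10 with -0.18 and Nhp2 with 0.11 in library 20 and -0.33 in library 21. Nolc1, a nucleolar chaperone of snoRNPs, had a log2 fold change of 0.27, close in libraries 20 (0.28) and 21 (0.26). Rrp9, a protein of the snoRNP that guides early cleavage of the precursor, had 0.27 in library 20 and -0.34 in library 21.

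Of 4 small subunit processing genes, 3 were above shSC in both libraries, 1 was below it in both, and 0 passed (median 0.36). All genes tested had 36.1% above and 35.8% below in both, and counts over 4 genes are a description only. Utp20, a very large scaffold of the small subunit processome, had 1705 and 2203 scaled counts in libraries 20 and 21, against 1371 in shSC. On the log2 scale it was 0.50 ± 0.23 above shSC (SE; limma adjusted p = 0.538), the next largest value of the 36 after Ncl. Wdr43, a processome subunit, had 6207 and 7135 scaled counts in libraries 20 and 21, against 5247 in shSC (log2 fold change 0.34). Rrp12, which acts in pre-ribosome export and processing, had 581 and 519, against 422 in shSC (0.38). Imp4, which joins the snoRNP to the precursor, had 3220 and 2804, against 3371 in shSC (-0.17). The first 3 thus stood above shSC and Imp4 below it in each shNF2 library.

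The 10 large subunit processing genes centred on zero, with a median log2 fold change of 0.00 that was -0.01 under TMM scaling. Of these 10, 5 were above shSC in both libraries, 3 were below it in both, and 0 passed. The shares over all genes tested were 36.1% above and 35.8% below. Pes1, Bop1 and Wdr12 form the PeBoW complex, which is needed for maturation of the large subunit RNA. Pes1 had 3650 and 3420 scaled counts in libraries 20 and 21, against 3002 in shSC. Bop1 had 2061 and 1581, against 1848 in shSC, and Wdr12 had 5169 and 5170, against 5032 in shSC. Only Pes1 and Wdr12 of the complex were above shSC in both libraries, with log2 fold changes of 0.24 and 0.04, and Bop1 had -0.03. Ddx21, a helicase that acts with RNA polymerase I and in precursor processing, had 5107 and 5573 scaled counts, against 4294 in shSC (log2 fold change 0.31). At the other end, the assembly factor Ppan had 992 and 707 scaled counts in libraries 20 and 21, against 1032 in shSC (-0.30). Mrto4, which holds a place on the early large subunit before a stalk protein takes it, had 5515 and 4794, against 6030 in shSC (-0.23). The assembly factor Rrs1 and the RNA methyltransferase Nop2 had log2 fold changes of 0.16 and 0.08, and the assembly factor Nop16 had -0.11. The nucleolar GTPase Gnl3, called nucleostemin, had -0.18 in library 20 and 0.02 in library 21.

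The 4 RNA polymerase genes had log2 fold changes of -0.12 to 0.18 as means of libraries 20 and 21, and 0 passed. Polr1a, the largest subunit of RNA polymerase I, had 799 and 832 scaled counts in libraries 20 and 21, against 719 in shSC, and Polr1b, the next largest, had 1297 and 1296, against 1279 in shSC. Polr1c, shared by RNA polymerases I and III, had 5172 and 3873, against 4865 in shSC. Polr3d, a subunit of RNA polymerase III, had 503 and 415, against 421 in shSC. Polr1a and Polr1b were above shSC in both shNF2 libraries, by little, where 36.1% of all genes tested were above in both. For Polr1c and Polr3d the shSC value lay between those of the shNF2 libraries. Their log2 fold changes in libraries 20 and 21 were 0.09 and -0.33 for Polr1c and 0.26 and -0.02 for Polr3d.

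The 3 biosynthesis enzymes had log2 fold changes of 0.09 to 0.18, and 0 passed. Odc1, which makes putrescine and starts polyamine synthesis, had 31020 and 37583 scaled counts in libraries 20 and 21, against 32000 in shSC. Srm, spermidine synthase, had 1866 and 1565, against 1551 in shSC. Cad, the enzyme of the first steps of pyrimidine synthesis, had 962 and 973, against 856 in shSC. Cad and Srm were above shSC in both libraries, Srm by only 0.01 in library 21, and Odc1 in library 21 alone. Of all genes tested, 36.1% were above shSC in both libraries.

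Among 5 mitochondrial and chaperonin genes, 3 were above shSC in both libraries, 2 below it in both, and 0 passed. Across all genes tested, 36.1% were above in both and 35.8% below in both. Hspd1 (the Hsp60 barrel) and Hspe1 (its Hsp10 lid) are neighbouring genes that share a promoter region in mammals. Hspd1 had 9215 and 13126 scaled counts in libraries 20 and 21, against 8378 in shSC, a log2 fold change of 0.39 (95% interval -0.13 to 0.92; limma adjusted p = 0.687). Hspe1 had 15603 and 14848, against 20088 in shSC, a log2 fold change of -0.40 (95% interval -0.87 to 0.07; limma adjusted p = 0.633). The ratio of Hspd1 to Hspe1 within a library was 0.591 and 0.884 in libraries 20 and 21 and 0.417 in shSC. This pair was chosen after its values were seen, and a trend with base composition or length does not cancel in the ratio. After the length and GC correction described below, log2 fold changes in libraries 20 and 21 were 0.11 and 0.50 for Hspd1 and -0.29 and -0.15 for Hspe1. Hspd1, Hspe1, Npm1 and Odc1 have near-identical processed copies in the mouse genome, and reads that align to several places may have been lost or split, so their levels are uncertain. Cct2 and Cct3, subunits of the cytosolic chaperonin that folds actin and tubulin, had log2 fold changes of 0.13 and 0.21, nearly equal in both libraries, and Tfam, which packages mitochondrial DNA and starts its transcription, had -0.01.

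**Figure D2:**
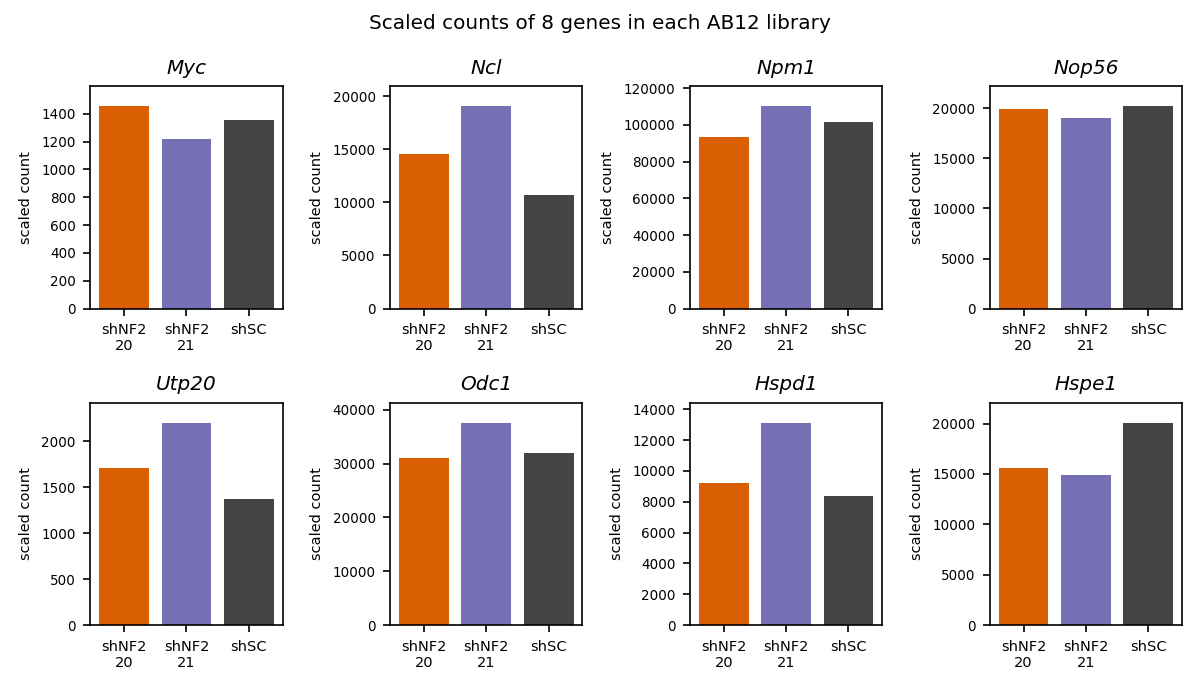
Scaled counts (y axis, from 0, its own scale for each gene) of 8 genes in shNF2 library 20, shNF2 library 21 and shSC, with 1 bar for each library and no replicate error. Ncl, Utp20 and Hspd1 are above shSC in both shNF2 libraries, Hspe1 and Nop56 are below it in both, and for Myc, Npm1 and Odc1 the shSC bar lies between the shNF2 bars.

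The shNF2 libraries were often as far from each other as from shSC. The size of the log2 fold change exceeded the gap between libraries 20 and 21 for 21 of 36 genes, and for 51.1% of all genes tested. The median gap was 0.18, against 0.23 over all genes tested. For 25 genes the gap was larger than counting error alone, by an exact 95% binomial interval on the reads. Library 21 was higher for 10 of them and lower for 15. This interval covers counting error only and compares these 2 libraries, not conditions. It was not computed for all genes tested, so the count of 25 cannot be read as particular to this group. Each of the 36 genes had at least 427 reads in every library, so even small gaps can exceed counting error. The widest gaps, library 21 minus library 20, were -0.60 for Rrp9 (counting interval -0.73 to -0.48), -0.49 for Ppan and -0.42 for Polr1c on the low side. On the high side they were 0.51 for Hspd1 (0.47 to 0.55), 0.39 for Ncl and 0.37 for Utp20. Library 21 was above library 20 for 14 of 36 genes, and for 50.8% of all genes tested.

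These gaps went with base composition and, less closely, with length. With the GC content of human protein-coding transcripts of the same symbol as a stand-in for the mouse, Spearman's rho between GC and the gap was -0.698 across the 36 genes, which are not independent replicates and share the same libraries, and -0.425 across the 10318 tested genes with a stand-in. With stand-in length, rho was 0.453 across the members and 0.332 across those genes. The parts of GC and length cannot be told apart here, since the correction removed both. Of the 18 genes with the lower GC (39.8% to 50.2%), library 21 was above library 20 for 12, and of the 18 with the higher GC (50.9% to 65.2%) for 2. The median log2 fold change in library 21 was 0.18 in the lower GC genes and -0.00 in the higher GC genes, and in library 20 it was 0.11 and 0.16. Each library's trend over GC and length together was then subtracted, an alternative chosen after seeing the data. With this, rho between GC and the gap was -0.0754 across the 36 genes, and the medians in library 21 were 0.07 and 0.07. The trend was fitted to genes that include these 36, so a weaker relation follows from the subtraction itself and is not a finding. The correction gave log2 fold changes of 0.54 for Ncl, 0.36 for Utp20, 0.31 for Hspd1 and -0.22 for Hspe1, and 0 of 36 genes passed. At an unadjusted limma p under 0.05 there were 3 of the 36 after correction, beside 1360 of the 10318 genes.

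**Figure D3:**
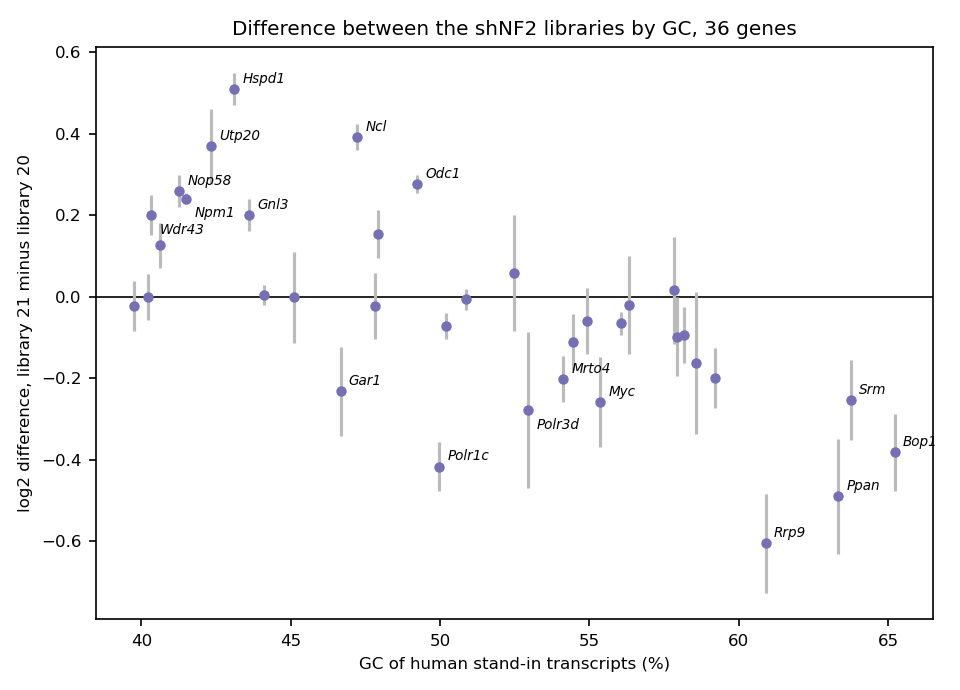
Log2 difference of library 21 minus library 20 (y axis) against the GC percentage of human stand-in transcripts (x axis), with 1 point for each of the 36 genes and bars for the exact 95% counting interval. Low GC genes such as Hspd1 (0.51) and Utp20 (0.37) lie above 0, and high GC genes such as Rrp9 (-0.60) and Ppan (-0.49) lie below it.

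Other genes of the same pathways were read from 9 lists with 252 tested genes, and limma called 0 of them, against 0.843% of all genes tested. At an unadjusted p under 0.05 there were 10 above and 13 below shSC, together 9.13% of these genes, against 9.27% of all genes tested. The medians of the 2 ribosome assembly lists lay above shSC, as did that of the group described here. The small subunit processome list had a median log2 fold change of 0.19, with 29 of 43 genes above shSC in both libraries and 8 below it in both. The large subunit assembly list had 0.18, with 26 of 46 above and 9 below, where 36.1% and 35.8% of all genes tested were above and below. In these lists the processome subunit Wdr36 had 0.59, Bms1 and Tsr1, GTPase-like factors of small subunit maturation, 0.40 and 0.38, and Fcf1, the processome protein of a nuclease family, -0.44. The helicase genes Ddx10 and Ddx27 had 0.63 and 0.38, Tex10 0.43 and the assembly factor Nip7 -0.57. The snoRNP partners had a median of 0.01 over 11 genes, with 0.11 in library 20, -0.12 in library 21 and -0.02 under quantile normalization. Their assembly factors Znhit6, Rpap3, Naf1 and Znhit3 had 0.64, 0.50, 0.44 and -0.38.

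The polymerase I and III machinery had a median of 0.02 over 32 genes, with -0.02 in library 20, 0.07 in library 21 and -0.03 after length and GC correction. Polr3gl, a subunit of RNA polymerase III, had 176 and 136 scaled counts in libraries 20 and 21, against 292 in shSC (log2 fold change -0.91, limma adjusted p = 0.314). Maf1, the repressor of RNA polymerase III, had -0.51 and Ttf1, which ends polymerase I transcription, 0.46. Among 30 chaperonin and mitochondrial biogenesis genes the median was -0.04, with 0.05 in library 20, -0.05 in library 21 and 0.03 under quantile normalization. The import receptor Tomm20 had -0.58, the prohibitin Phb2 -0.45, the import chaperone Timm10 -0.44 and Hspa9, the mitochondrial Hsp70, 0.44. The other subunits of the cytosolic chaperonin, Tcp1, Cct4, Cct5, Cct6a, Cct7 and Cct8, ran from -0.15 to 0.22.

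Among 27 nucleotide, polyamine and one-carbon enzymes (median 0.13), the smallest p was that of a polyamine gene. Sat1, which acetylates spermidine and spermine for breakdown and export, had 15671 and 12622 scaled counts in libraries 20 and 21, against 29130 in shSC. Both shNF2 libraries were below shSC, and the log2 fold change was -1.05 ± 0.23 (SE; limma adjusted p = 0.0564). Sat1 passed with DESeq2 (adjusted p = 0.00744), without the filter on low values (0.00888) and after length and GC correction (0.0407), and did not pass under the other 8 alternatives with a test (adjusted p from 0.0544 to 0.647). Sms, spermine synthase, had 4979 and 4577 scaled counts, against 7151 in shSC (-0.58). Ctps, which makes cytidine triphosphate, had 6137 and 6043, against 3708 in shSC, or 0.72 ± 0.21 on the log2 scale (SE; limma adjusted p = 0.176), and Prps2, which makes the ribose donor for nucleotides, had 0.58.

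In the Myc network the median was -0.07 over 24 genes. Mxd1, a Max partner that opposes Myc, had 167 and 109 scaled counts in libraries 20 and 21, against 280 in shSC (log2 fold change -1.05; limma adjusted p = 0.276). Mlxipl, a glucose-responsive relative, had 18.8 and 27.2, against 73.0 in shSC (-1.65; limma adjusted p = 0.198), and Mlx and Mxd4 had -0.35 and -0.39. Other Myc targets had a median of 0.09 over 30 genes, with the cyclin Ccnd2 at 0.55, Hnrnpa1 at 0.53, the repair nuclease Apex1 at 0.40 and Nampt, an enzyme of NAD synthesis, at -0.53. Genes that Myc is known to repress had a median of -0.35 over 9 tested, with -0.14 in library 20 and -0.44 in library 21, and 6 of them were below shSC in both libraries, where this held for 35.8% of all genes tested. Ndrg1 and Ndrg2 had -0.75 and -0.67, the cyclin-dependent kinase inhibitor Cdkn1b -0.43 and Gadd45b, which runs against its list, 0.93. None of these passed the test.

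**Figure D4:**
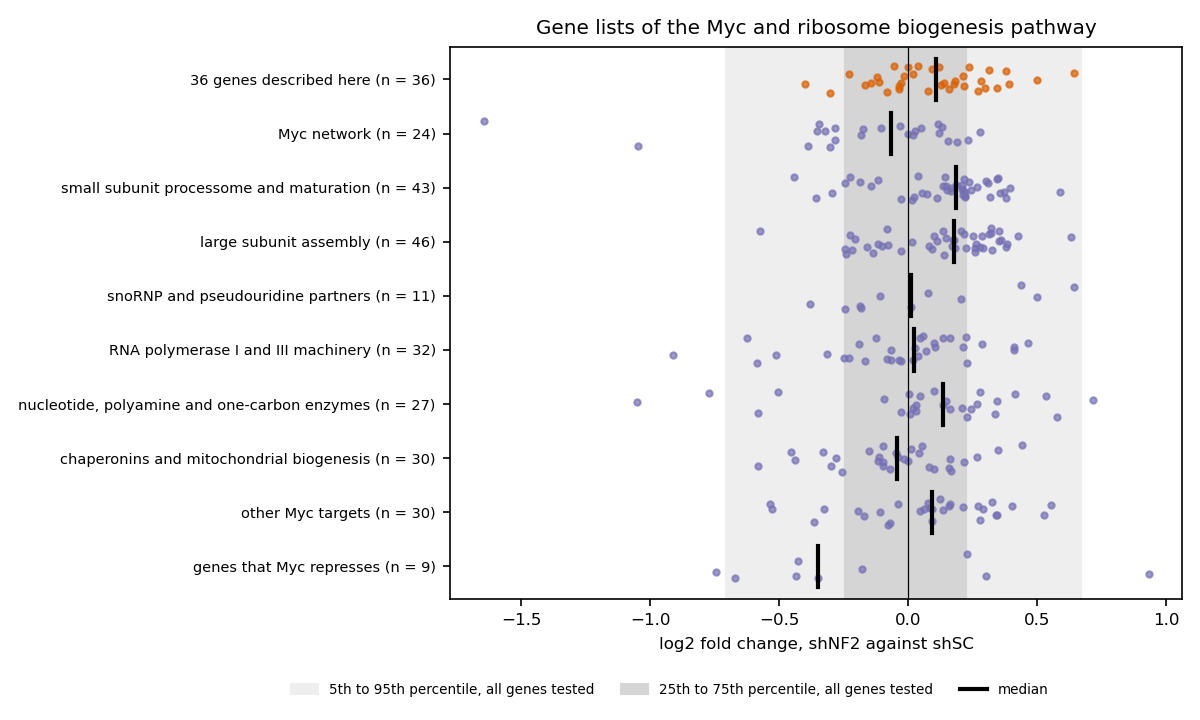
Log2 fold change of shNF2 against shSC (x axis) for each tested gene of the 36 described here and of 9 pathway lists (rows, with n; vertical scatter has no meaning), with black bars for medians. Grey bands span the 5th to 95th and the 25th to 75th percentile of all 12813 genes tested, -0.70 to 0.67 and -0.24 to 0.22, and all medians but that of the genes that Myc represses (-0.35; -0.14 in library 20 alone, -0.44 in library 21 alone) lie in the inner band.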

How the data were processed

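The authors deposited 1 table of gene signal, described in its name as scaled counts. Per the submitters' processing notes, the tools included STAR 2.5.0a, HTSeq 0.5.3, DESeq 1.22.1 and cutadapt 1.6, without their roles; how strand was handled is not stated. Per the deposited values, 100% of entries were whole reads divided by 1 factor per library (tolerance 0.001 reads). No gene had a total under 15 reads, so a filter on low genes had been applied. A further 4 rows name no gene; they held 48.7%, 47.7% and 48.6% of reads in library 20, library 21 and shSC and were left out.

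limma 3.58.1 (R 4.3.3) with a variance trend was fitted to log2(scaled count + 1) for 12813 genes (mean scaled count 10 or more), and p-values were adjusted by Benjamini-Hochberg over all of them. There was 1 residual degree of freedom (11.9 prior). By exact permutation, 2 libraries against 1 give a p of 1/3 at the least. The p-values reflect only how these libraries vary, possibly for technical reasons. edgeR 4.0.16, DESeq2 1.42.0 (12316 genes with an adjusted p), other pseudocounts, filters and scalings, limma with robust moderation or no variance trend, and leaving out each shNF2 library were alternatives. Length and GC correction (mgcv 1.9.3) used medians of human GENCODE v29 basic protein-coding transcripts of the same or a synonymous symbol (80.5% of genes tested, all 36 members). Scripts were tested on simulated data. Named were all members, Nf2, markers and up to 4 genes with the smallest p in each list, of which 1 is not reported here; Max, Nop10, Nhp2 and the other chaperonin subunits were added afterwards. Members and lists were chosen with earlier results of these data known. Promoter motifs were not searched, because no mouse promoter sequence was used.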

Additional observations from a re-analysis of the deposited data

How the results depend on the processing

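No paired analysis was possible because there was only 1 shSC library. Under each of the 11 alternatives with a test, 0 of the 36 genes were called. edgeR and DESeq2 were among these alternatives, and the others used limma. The smallest adjusted p of any of the 36 genes was 0.218 (Ncl, by limma without the filter on low values). The median of the group ran from 0.08 without library 20 to 0.15 without library 21, and over the other alternatives from 0.10 to 0.12. Genes above shSC in both libraries numbered 19 to 21, and below it 7 or 8. For 8 genes libraries 20 and 21 had opposite signs against shSC, so their sign depends on which library is left out. Leaving out a library gives no test and is not counted in what follows. Of 396 repeated tests of the group under the 11 alternatives with a test, 384 kept direction and side of the threshold. The other 12, in 10 genes near zero, changed sign. Under quantile normalization these were Npm1 (0.37), Nop56 (0.091), Gnl3 (0.037), Tfam (0.016) and Polr1b (-0.034). After length and GC correction they were Bop1 (0.14), Rrp9 (0.12), Nop16 (0.016), Myc (0.0094), Wdr12 (-0.10) and Polr1b (-0.10). With DESeq2 it was Npm1 (0.0025); the cause was not tested. Over all genes limma called 53 higher and 55 lower, and it called 110 and 122 without the filter; edgeR called 29 higher. limma called 0 and 0 with quantile normalization, where 882 genes had an unadjusted p under 0.05, and also with no trend in the variance, where 1036 did. No scaling moved the median of all genes by over 0.1. Each of the 36 genes had at least 427 reads in every library, for a counting SD of at most 0.07 on the log2 scale, which lies below the SE of 0.21 to 0.27.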
